A study of Mus musculus with 3 samples.

Results

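Pax5, Ebf1, Tcf3 and Foxo1 encode transcription factors of early B cells, and 3 histone marks were read at their genes in mouse pro-B cells. The members are 4 windows of genome build mm9, given by position around the genes. These were chromosome 4, 44535001 to 44735000, for Pax5, chromosome 11, 44420001 to 44830000, for Ebf1, chromosome 10, 79865001 to 79905000, for Tcf3, and chromosome 3, 52060001 to 52160000, for Foxo1. They hold 750 bins of 1 kb, 749 with a read, of 2285014 bins with a read in the genome.

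Histone H3 was immunoprecipitated with 3 antibodies and the DNA sequenced (ChIP-seq), 1 library each, and no input library was used here. The antibodies to H3R2me2s and the combined mark were raised in the laboratory and that to H3K4me3 was bought from Abcam. H3R2me2s is symmetric dimethylation of arginine 2 of histone H3, H3K4me3 is trimethylation of lysine 4, and H3R2me2sK4me3, called the combined mark, is both on the same tail. Depth was 6923765 reads in the H3R2me2s library, 7128852 in that of the combined mark and 13898471 in that of H3K4me3. All came from RAG2-/- pro-B cells transformed with Abelson virus, grown in culture, with the strain given as C57BL/7. Without RAG2, antigen receptor genes cannot be joined, so these cells stay at an early stage, and the virus keeps them dividing. No RNA was measured, so a mark at a gene is not a measure of its transcript. Whether the line is 1 clone is not stated. The B-lineage genes themselves are the only cell type markers examined here.

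Tcf3 encodes the E proteins E12 and E47, which bind E-boxes and start the B-lineage program. Together with Foxo1, a forkhead factor restrained by growth signals, the E proteins activate Ebf1, and Ebf1 in turn activates Pax5, the factor that holds cells in the B lineage. H3K4me3 is the usual mark of active promoters. Symmetric H3R2 methylation is known to be read by Wdr5, a subunit of the complexes that methylate lysine 4.

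The RefSeq promoters of the genes are shown because the strongest signal of all 3 marks lay at the 5′ ends of the windows. They come from build GRCm38.p6, whose positions are not those of mm9, and they were matched by symbol only and were not used to place any peak. Each is the 250 bases before a listed start, 5′ to 3′. Pax5 lies on the minus strand at chr4:44710695-44710944. Ebf1 lies on the plus strand with starts listed after chr11:44617850-44618099 and chr11:44619978-44620227. Tcf3 lies on the minus strand at chr10:80433636-80433885 and Foxo1 on the plus strand at chr3:52268087-52268336. Capitals mark the motifs CANNTG (the E-box of E proteins, the same on both strands) and TCCC followed by any 2 bases and GGGA (a core of the Ebf1 site, the same on both strands). TGTTTAC, a forkhead core, was searched on both strands. No motif overlapped another.
Pax5: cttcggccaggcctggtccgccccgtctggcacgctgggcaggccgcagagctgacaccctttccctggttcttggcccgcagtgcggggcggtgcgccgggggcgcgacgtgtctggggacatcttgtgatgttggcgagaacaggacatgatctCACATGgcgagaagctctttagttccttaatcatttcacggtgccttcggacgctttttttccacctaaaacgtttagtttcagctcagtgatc
Ebf1 first start: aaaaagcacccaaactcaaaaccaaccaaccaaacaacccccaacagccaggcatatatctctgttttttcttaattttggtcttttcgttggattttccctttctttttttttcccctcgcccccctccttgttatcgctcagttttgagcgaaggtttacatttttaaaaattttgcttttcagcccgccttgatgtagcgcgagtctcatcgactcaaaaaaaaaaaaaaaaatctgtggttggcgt
Ebf1 second start: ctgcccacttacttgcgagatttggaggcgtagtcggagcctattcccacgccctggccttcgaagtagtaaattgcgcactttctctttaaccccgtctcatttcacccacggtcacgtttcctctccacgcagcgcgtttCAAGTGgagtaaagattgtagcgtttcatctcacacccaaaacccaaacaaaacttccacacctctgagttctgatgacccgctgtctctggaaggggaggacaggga
Tcf3: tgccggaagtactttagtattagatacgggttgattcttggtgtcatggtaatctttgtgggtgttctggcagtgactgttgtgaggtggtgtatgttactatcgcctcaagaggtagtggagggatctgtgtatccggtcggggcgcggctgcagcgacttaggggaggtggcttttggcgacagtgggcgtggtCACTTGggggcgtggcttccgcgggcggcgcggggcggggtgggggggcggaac
Foxo1: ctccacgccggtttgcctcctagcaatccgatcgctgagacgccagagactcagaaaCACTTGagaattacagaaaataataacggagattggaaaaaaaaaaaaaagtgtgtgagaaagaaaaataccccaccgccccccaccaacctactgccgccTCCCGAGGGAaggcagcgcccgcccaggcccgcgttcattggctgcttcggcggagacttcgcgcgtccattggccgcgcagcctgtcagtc

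Each promoter except that of the first Ebf1 start held 1 E-box. It stood 94 bases before the Pax5 start, 108 before the second Ebf1 start, 54 before the Tcf3 start and 193 before the Foxo1 start. An E-box is no rarity, since 66.2% of 32851 RefSeq promoters of this length hold one. The Ebf1 core occurred once, in the Foxo1 promoter 92 bases before the start, and 0.779% of all promoters hold it. The forkhead core was in none of the 5 sequences and in 3.17% of all promoters. The promoters of Foxo1, Pax5 and Tcf3 held 20, 19 and 18 CpG dinucleotides, beside a median of 6 over all promoters. The second Ebf1 start had 14 and the first had 9, and the first was also the poorest in G and C, at 40% beside a median of 52.4%. These letters describe the sequence and show no binding.

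Each read was moved 75 bp in its 3′ direction and counted in 1 kb bins. A bin was called enriched from 15 (H3R2me2s), 16 (combined mark) or 25 (H3K4me3) reads on, limits set over the whole genome. Background is the average bin that lies further than 5 kb from every enriched bin, which was 2.35, 1.86 and 2.98 reads per bin in the same order. Levels are given as multiples of it, and counts scaled to library size are given as CPM. Intervals are exact 95% intervals of counting error. Reads amplified by PCR lack molecular identifiers and so are not independent molecules, and with 1 library per antibody no difference has a replicate check, so no p-value is given.

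In the 4 windows, H3R2me2s was enriched in 61 bins, the combined mark in 46 and H3K4me3 in 79. These are 8.14%, 6.14% and 10.5% of the bins with a read, beside 1.23%, 1.45% and 2.45% over the genome. The windows were drawn around genes, so the higher shares are read as no more than that. Of the 79 H3K4me3 bins, 48 were also enriched for H3R2me2s (60.8%, beside 46.8% of such bins in the genome) and 46 for the combined mark (58.2%, beside 58.6%). All 46 bins of the combined mark were H3K4me3 bins, as were 32848 of the 33137 bins of that mark in the genome. Of the 61 H3R2me2s bins, 48 were H3K4me3 bins, or 78.7%, where the genome has 93%. All 3 marks shared 39 bins, 5.21% of the window bins beside 1.05% of all bins. H3R2me2s was called only in 13 bins, all outside the promoter regions, which are 1.74% of the window bins beside 0.0854% of all bins. Bins of H3K4me3 only numbered 24 (0.919% of all bins in the genome), those of H3K4me3 with the combined mark only 7 (0.386%), and those of H3R2me2s with H3K4me3 only 9 (0.0957%), of which 8 were in Ebf1. The combined mark was called in 39 of the 61 H3R2me2s bins, where the genome has 85.3%.

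**Figure D1:**
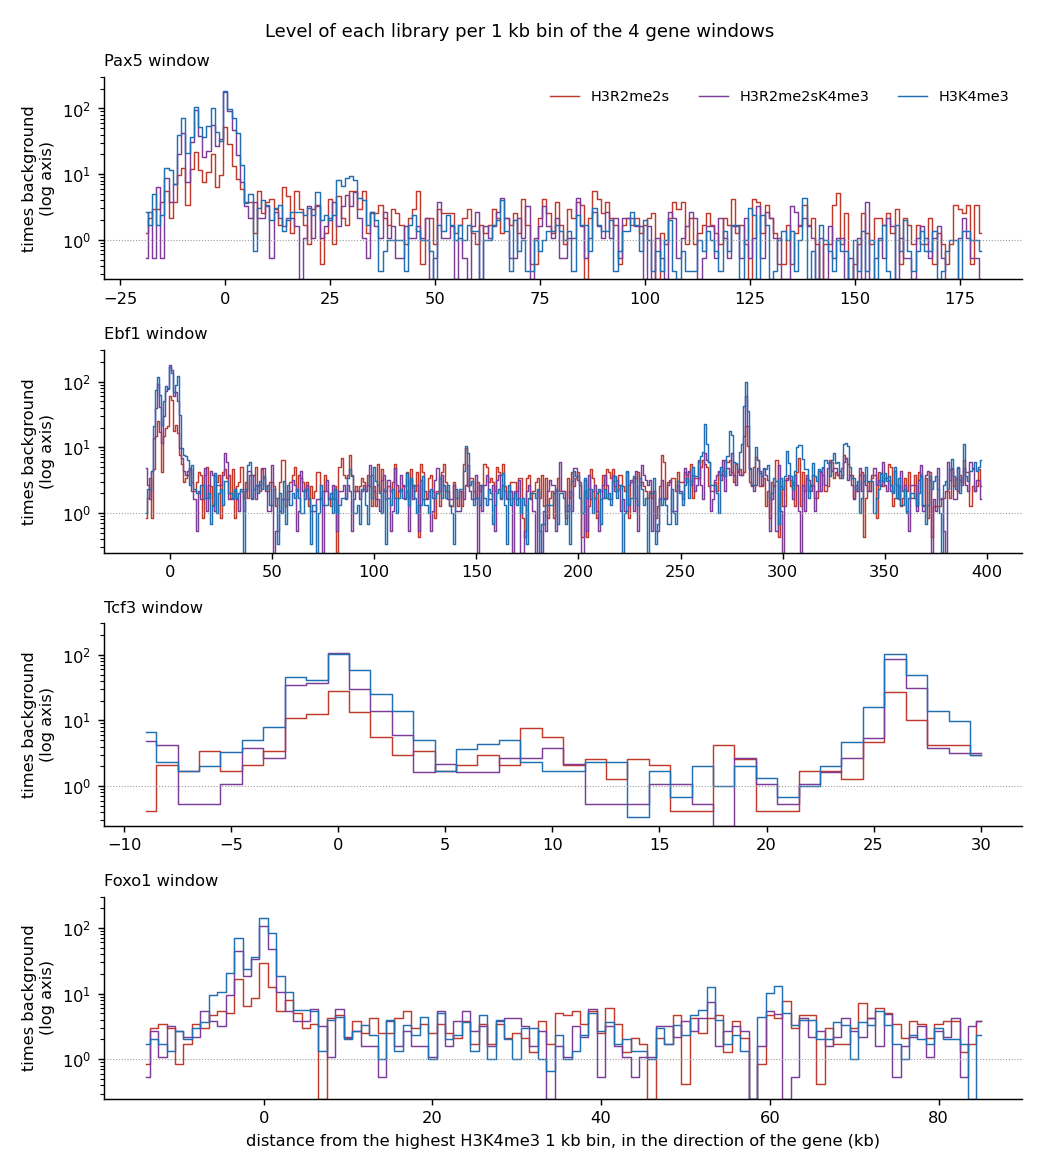
Level of each library in every 1 kb bin of the 4 windows, as multiples of its background on a log axis, against distance in kb from the highest H3K4me3 bin in the direction of the gene; levels under 0.25 are drawn at 0.25 and the dotted line is background. All 3 libraries peak at the 5′ end of each gene, and the Tcf3 window has a peak at its far edge. Ebf1 has a group of further peaks that starts 241 kb into the gene from its highest bin, with a bin called for H3R2me2s alone.

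The promoter region of each gene was taken as the H3K4me3 region with most reads at the 5′ end of its window, since no mm9 annotation was used. A region joins enriched bins separated by at most 1 kb. Each promoter region was called for all 3 marks, and each had the same 1 kb bin as its highest in all 3 libraries. That bin did not change with reads not moved, with reads moved 150 bp, or with 1 read kept per position and strand. Of the 50 bins of the 4 promoter regions, 35 were enriched for all 3 marks, 6 for H3K4me3 and the combined mark only, 7 for H3K4me3 only, 1 for H3K4me3 and H3R2me2s, and 1 for none. In the genome, 24023 of 56039 H3K4me3 bins were enriched for all 3 marks. The promoter regions were picked for their H3K4me3 reads. How often other H3K4me3 regions of like width carry all 3 marks or share 1 highest bin was not counted, so neither is read as particular to these genes.

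The Pax5 promoter region was among the widest of the genome. It spanned 19 kb (chromosome 4, 44711001 to 44730000), wider than 99.9% of 18461 H3K4me3 regions. It held 577 H3R2me2s reads, 1405 reads of the combined mark and 3084 H3K4me3 reads, which are 12.9, 39.7 and 54.5 times background. H3K4me3 was enriched in 18 of its 19 bins, the combined mark in 15 and H3R2me2s in 14. Its signal was not 1 peak but 4, when a summit is a 1 kb bin that stands at least 2 times above the lowest bin between it and any higher summit. In the direction of the gene, their H3K4me3 counts were 210, 316, 299 and 544 reads, at 44725001, 44722001, 44718001 and 44715001. The highest was the last, 7 kb into the gene from the summit at 44722001. Pax5 is known to be transcribed from alternative first exons, and the summits were not assigned to them here. The bin at 44716001, which parts the highest summit from the next, also holds 200 bp without a read in any library, and whether such stretches set the number of summits was not tested.

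The combined mark did not rise in fixed proportion to H3K4me3 over the Pax5 summits, while for H3R2me2s most intervals included no change. The combined mark had 79, 176, 103 and 334 reads at the 4 summits, and H3R2me2s had 29, 52, 48 and 122. The CPM ratio of the combined mark to H3K4me3 was 1.20 (1.04 to 1.37) at the highest summit and 1.09 (0.898 to 1.31) at 44722001. It was lower at 44725001, 0.733 (0.559 to 0.954), and at 44718001, 0.672 (0.532 to 0.843). These are 0.613 (0.451 to 0.828) and 0.561 (0.427 to 0.734) of the value at the highest summit. The ratio of H3R2me2s to H3K4me3 was 0.450 (0.367 to 0.549) at the highest summit. It was 0.616 of that (0.384 to 0.963) at 44725001, while at 44722001 and 44718001 it was 0.734 (0.505 to 1.06) and 0.716 (0.487 to 1.04) of that. H3R2me2s per combined mark, as a quotient to the highest summit, was 1.00 (0.602 to 1.64) at 44725001. At 44722001 and 44718001 that quotient was 0.809 (0.545 to 1.19) and 1.28 (0.834 to 1.93). Over the summits of Pax5, Ebf1 and Foxo1 together, 15 such quotients were taken, and 5 had an interval that excluded no change, with no adjustment for their number. Summits were picked by H3K4me3, the denominator of most of these ratios, so the quotients are not independent of that choice.

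Ebf1 had the most reads and the highest mean level of the 4 promoter regions in all 3 libraries, though the highest single H3K4me3 bin was that of Pax5. It spanned 15 kb (chromosome 11, 44424001 to 44439000), with 714 H3R2me2s reads, 1685 of the combined mark and 3378 of H3K4me3. These are 20.2, 60.4 and 75.6 times background, and 99.9% of H3K4me3 regions had fewer reads. All 15 bins were enriched for H3K4me3, 14 for the combined mark and 12 for H3R2me2s. There were 2 summits 6 kb apart. The upstream one (44426001 to 44427000) had 59, 171 and 351 reads of H3R2me2s, the combined mark and H3K4me3. The downstream one (44432001 to 44433000) had 144, 336 and 492. Between them the bin at 44428001 had 10, 22 and 66 reads, and 300 bp of it were almost without reads in all 3 libraries.

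At Ebf1 both arginine marks were relatively stronger at the downstream summit. H3R2me2s per H3K4me3 was 0.588 there (0.485 to 0.709) and 0.337 upstream (0.252 to 0.446), and the upstream value was 0.575 of the downstream one (0.404 to 0.809). The combined mark per H3K4me3 was 1.33 (1.16 to 1.53) against 0.950 (0.786 to 1.14), a quotient of 0.714 (0.563 to 0.903). The ratio between the arginine marks was 0.441 and 0.355, and the interval of that quotient, 0.554 to 1.16, includes no change. At the downstream edge the bin at 44436001 had 358 H3K4me3 reads beside 39 (H3R2me2s) and 93 (combined mark). It was chosen after its values were seen.

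Tcf3 had a compact promoter region of 6 kb (chromosome 10, 79892001 to 79898000) with 1 summit when counted in 1 kb bins. It held 172 H3R2me2s reads, 423 of the combined mark and 856 of H3K4me3, at 12.2, 37.9 and 47.9 times background. The highest bin, 79895001 to 79896000, had 65, 196 and 301 reads. Upstream of that bin, 500 bp (79896001 to 79896500) were almost without reads in all 3 libraries. The kilobase beyond held 46, 124 and 236 reads, a second rise that 1 kb bins did not part from the summit. All 6 bins were enriched for H3K4me3, 5 for the combined mark and 4 for H3R2me2s. In width it exceeded 88.5% of H3K4me3 regions, and in reads 90.9%.

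Foxo1 had a promoter region of 10 kb (chromosome 3, 52068001 to 52078000) with 241, 533 and 1269 reads, at 10.2, 28.6 and 42.6 times background. Its summits lay 3 kb apart, and the bin between them overlaps a stretch of 1000 bp almost without reads in all 3 libraries. The upstream bin at 52071001 had 39, 84 and 210 reads, and the highest bin at 52074001 had 69, 202 and 423. All 10 bins were enriched for H3K4me3, 7 for the combined mark and 6 for H3R2me2s. The ratios at the summits did not differ beyond counting error. Over the whole region, however, H3R2me2s per H3K4me3 was lower in the 3 bins strongest in H3K4me3, at 0.313, than in the other 7, at 0.538, a quotient of 0.582 (0.435 to 0.780). With background subtracted these were 0.300 and 0.478. In the other genes the same quotient was 0.976 for Pax5 (0.811 to 1.18), 1.13 for Ebf1 (0.955 to 1.33) and 1.02 for Tcf3 (0.726 to 1.44). For the combined mark per H3K4me3 it was 1.32 for Pax5 (1.15 to 1.51), 1.20 for Ebf1 (1.06 to 1.35), 1.17 for Tcf3 (0.914 to 1.49) and 1.02 for Foxo1 (0.814 to 1.28). The bins were ranked by H3K4me3, the denominator of these ratios, so the split is not independent of them.

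**Figure D2:**
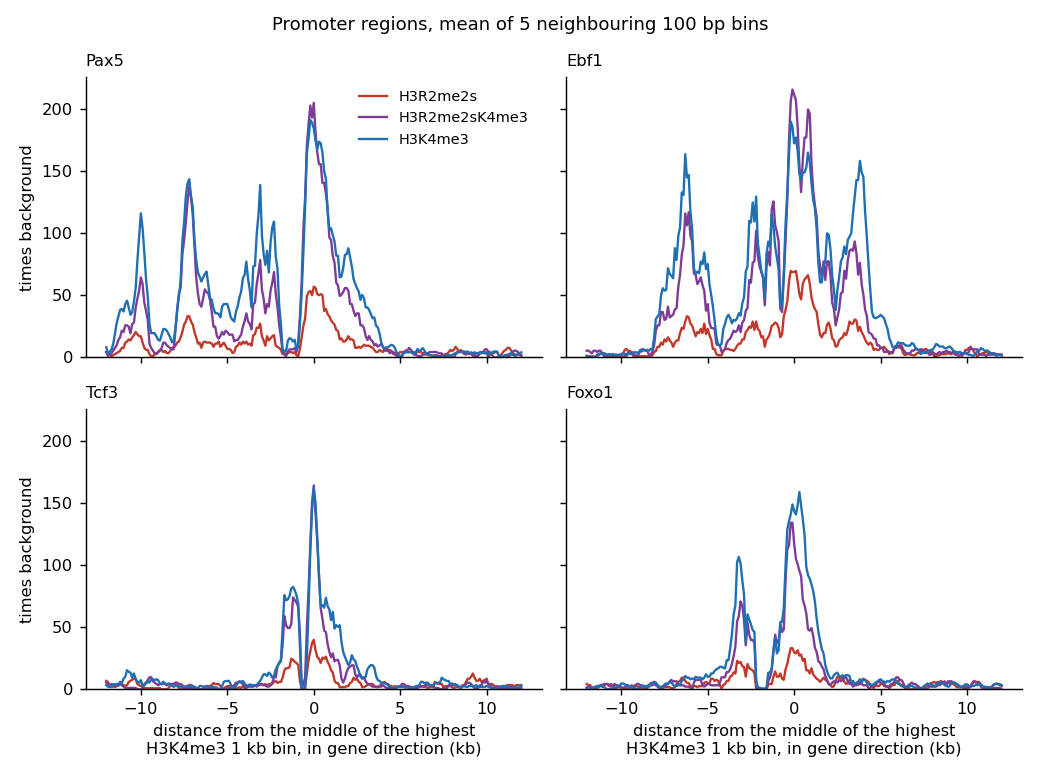
Level of each library around the highest H3K4me3 bin of the 4 promoter regions, as multiples of background (mean of 5 neighbouring 100 bp bins), against distance in kb in the direction of the gene. Counted in 1 kb bins, Pax5 has 4 summits and Ebf1 and Foxo1 have 2; the combined mark reaches the height of H3K4me3 at the highest summits of Pax5, Ebf1 and Tcf3, and H3R2me2s is the lowest over the peaks.

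Ranked by the highest 1 kb bin, H3K4me3 went from Pax5 (544 reads, 499 to 592) to Ebf1 (492, 449 to 537), Foxo1 (423, 384 to 465) and Tcf3 (301, 268 to 337). Pax5 and Ebf1 did not differ beyond counting error (quotient 1.11, 0.977 to 1.25), while Ebf1 was above Foxo1 (1.16, 1.02 to 1.33). Tcf3 was below Foxo1 (0.712, 0.612 to 0.827). The arginine marks put the genes in pairs. H3R2me2s had 144 reads at Ebf1 and 122 at Pax5, then 69 at Foxo1 and 65 at Tcf3. The combined mark had 336 and 334, then 202 and 196. Within each pair the intervals of the quotient included no change, and between the pairs they did not. Of 18 such comparisons, 13 had an interval that excluded no change, with no adjustment for their number.

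Over whole promoter regions, H3R2me2s per H3K4me3 was near the median of H3K4me3 regions in all 4 genes. The combined mark per H3K4me3 was above the median of all regions in all 4. All 4 are 6 kb or wider, and beside the median of such regions only Pax5, Ebf1 and Tcf3 were above, not Foxo1. H3R2me2s per H3K4me3 in CPM was 0.376 (0.343 to 0.411) at Pax5, 0.424 (0.391 to 0.460) at Ebf1, 0.403 (0.340 to 0.476) at Tcf3 and 0.381 (0.331 to 0.438) at Foxo1. The median over 18304 H3K4me3 regions was 0.407, and 0.401 over those of 6 kb or more. The combined mark per H3K4me3 was 0.888 (0.833 to 0.946), 0.972 (0.917 to 1.03), 0.963 (0.855 to 1.08) and 0.819 (0.739 to 0.907) in the same order. The median was 0.711 over all regions and 0.823 over the broad ones, and 80.8%, 92.7%, 91.8% and 68.4% of all regions were lower. H3R2me2s per combined mark was 0.423 (0.383 to 0.466), 0.436 (0.399 to 0.476), 0.419 (0.349 to 0.501) and 0.466 (0.398 to 0.543), with a median of 0.481 over broad regions. Of 18 comparisons between genes, 4 had an interval that excluded no change. The combined mark per H3K4me3 was lower at Foxo1 than at Ebf1 and Tcf3 and lower at Pax5 than at Ebf1, and H3R2me2s per H3K4me3 was lower at Pax5 than at Ebf1. Foxo1 against Ebf1 was the clearest of them, with Ebf1 1.19 times Foxo1 (1.06 to 1.34). The others lay at the edge of counting error, with Tcf3 over Foxo1 at 1.18 (1.01 to 1.38) and Pax5 over Ebf1 at 0.913 (0.837 to 0.996) for the combined mark and at 0.885 (0.783 to 0.999847) for H3R2me2s. Antibodies were not calibrated against each other, so a ratio is not a share of marked tails.

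Outside the promoter regions, 22 further regions were enriched for at least 1 mark, 15 of them in Ebf1, 3 in Foxo1 and 2 each in Pax5 and Tcf3. H3R2me2s alone was called in 9, H3R2me2s with H3K4me3 in 8, H3K4me3 alone in 3, and all 3 marks in 2. The 2 regions with all 3 marks were by far the strongest of the 22. No other region reached the limit of the combined mark with all reads counted, though 2 more in Ebf1 did with 1 read kept per position and strand, when the Ebf1 window had 20 bins of that mark in place of 17. Of the 22, 18 held 30 reads or more over the 3 libraries.

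The strongest region within Ebf1 lay at chromosome 11, 44711001 to 44716000. It held 105 H3R2me2s reads, 192 of the combined mark and 593 of H3K4me3, which are 8.92 (7.29 to 10.8), 20.6 (17.8 to 23.8) and 39.8 (36.7 to 43.2) times background. All 3 libraries peaked in the bin at 44714001, with 50, 111 and 298 reads. The H3K4me3 level of that bin was 100.0 times background, like that of the Tcf3 promoter. The combined mark was weaker beside H3K4me3 than at the promoter. Its CPM ratio was 0.631 (0.534 to 0.744) against 0.972 at the Ebf1 promoter, a quotient of 0.649 (0.543 to 0.773). H3R2me2s per H3K4me3 was 0.355 (0.286 to 0.438) against 0.424, a quotient whose interval, 0.664 to 1.05, includes no change.

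That region sat among others. With steps of no more than 20 kb, 10 of the 15 regions within Ebf1 formed a group from 44673001 to 44765000, which starts 241 kb into the gene from the promoter summit. The bin at the start of the group was called for H3R2me2s alone, and its first region called for H3K4me3 starts at 44693001. Over the 92 kb of the group the mean levels were 3.95 (H3R2me2s), 4.25 (combined mark) and 6.92 (H3K4me3) times background, with 13, 3 and 18 enriched bins. Beside the strongest region, H3K4me3 had 131 reads at 44704001 to 44708000, with 54 of H3R2me2s and 35 of the combined mark. It had 126 at 44693001 to 44696000, with 40 and 30, and 100 at 44762001 to 44765000, with 47 and 30. These 3 were called for H3R2me2s and H3K4me3, but the first 2 stood at the limits. Their highest bins had 15 reads of H3R2me2s, where the limit is 15, and 15 of the combined mark, where it is 16. With 1 read kept per position and strand, both had 1 bin enriched for the combined mark, and 44693001 to 44696000 had none for H3R2me2s. A region at 44739001 to 44742000 had 94 H3K4me3 reads and 29 of H3R2me2s but 7 of the combined mark. Its ratio of the combined mark to H3K4me3, 0.145 (0.0568 to 0.311), was among the lowest, with 0.344% of H3K4me3 regions below it. The weaker regions of the group among those called for H3K4me3 were 44719001 to 44721000 and 44734001 to 44735000. In the first H3K4me3 had 49 reads, H3R2me2s 32 and the combined mark 14, and in the second they had 26, 8 and 6. Near the 3′ end of the window, 44821001 to 44822000 had 34 H3K4me3 reads with 15 of H3R2me2s and 9 of the combined mark. Outside the group, the bin at 44577001 had 31 H3K4me3 and 23 H3R2me2s reads with 5 of the combined mark.

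The other region with all 3 marks lay in the Tcf3 window, at chromosome 10, 79866001 to 79871000, at the side of the 3′ end of Tcf3. It held 118, 244 and 575 reads of H3R2me2s, the combined mark and H3K4me3, at 10.0, 26.2 and 38.6 times background. Its highest bin, at 79869001, had 63, 163 and 308 reads, nearly those of the Tcf3 promoter bin. The ratios of marks did not differ from the Tcf3 promoter beyond counting error, with quotients of 1.02 (0.782 to 1.33) for H3R2me2s per H3K4me3 and 0.859 (0.707 to 1.04) for the combined mark. In the RefSeq table the next gene on this side of Tcf3 is Uqcr11, which encodes a subunit of respiratory complex III. Without an mm9 annotation the region was not assigned to either gene.

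In Pax5 and Foxo1 the regions within the window were weak. In Pax5 H3K4me3 alone was called at 44685001 to 44687000, with 54 reads beside 17 of H3R2me2s and 15 of the combined mark. In Foxo1, H3K4me3 was called at 52127001 to 52128000 (38 reads, with 10 and 14 of the others). At 52134001 to 52137000 it had 84 reads with 39 of H3R2me2s and 19 of the combined mark. No bin of either window outside the promoter region was called for the combined mark.

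The 9 regions called for H3R2me2s alone were close to its limit, with 15 to 18 reads in their highest bin, or 6.37 to 7.64 times background. There were 6 in Ebf1 and 1 each in Pax5, Tcf3 and Foxo1. In them the combined mark stood at 0.537 to 5.91 times background and H3K4me3 at 1.34 to 4.70. The Ebf1 region at 44487001 to 44489000 had 30, 6 and 12 reads of H3R2me2s, the combined mark and H3K4me3. The bins at 44516001, 44520001 and 44673001 had 16, 18 and 18 H3R2me2s reads beside 5, 14 and 4 of H3K4me3. Those at 44729001 and 44755001 had 15 each beside 9 and 11. In Pax5 the bin at 44701001 had 15 reads of H3R2me2s and 4 of H3K4me3, in Tcf3 that at 79886001 had 18 and 7, and in Foxo1 that at 52145001 had 17 and 11. Their high ratios to H3K4me3 follow from how they were called and are no finding. Of the 9, 5 were still called with 1 read kept per position and strand, 7 with reads not moved, 7 with reads moved 150 bp, and none at 8 times the mean or with a limit set from the gene window. The H3R2me2s limit also lay lower over background (6.37 times) than those of the combined mark (8.60) and H3K4me3 (8.39).

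**Figure D3:**
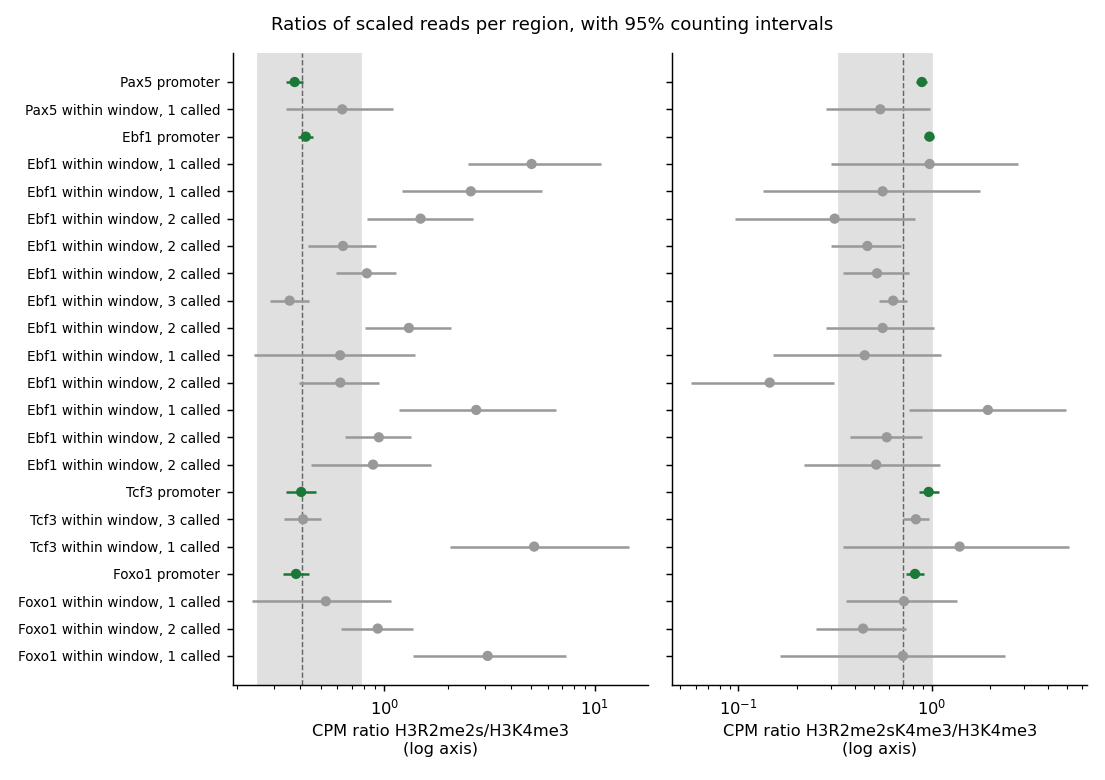
CPM ratios of H3R2me2s (left) and the combined mark (right) to H3K4me3 on log axes, for the 4 promoter regions (green) and the 18 regions within the windows with 30 reads or more (grey), with exact 95% intervals; the number called is how many of the 3 marks were called. The dashed line is the median of H3K4me3 regions and the band their 5th to 95th percentile; the promoter regions lie inside both bands, and the regions far to the right at H3R2me2s are those called for H3R2me2s alone.

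Between the enriched bins the windows were above background. Where the nearest enriched bin was over 1 kb away, Foxo1 had 2.96 times background of H3R2me2s (2.71 to 3.23, 76 bins), 2.56 of the combined mark (2.30 to 2.84) and 2.53 of H3K4me3 (2.32 to 2.74). Ebf1 had 2.75 (2.63 to 2.87, 333 bins), 2.41 (2.29 to 2.54) and 2.35 (2.26 to 2.45). Both were above the flanks of 500 kb on each side, which had 2.04, 1.93 and 2.08 at Foxo1 and 1.87, 1.90 and 1.87 at Ebf1. Over 25013 stretches of 100 kb in the genome, the median H3R2me2s level outside enriched bins was 0.904 and the 99th percentile 2.28. The Ebf1 level was higher than in 99.92% of them and the Foxo1 level than in 99.98%. Those stretches include gene-free sequence, and all 3 libraries were raised together.

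At Pax5 H3R2me2s alone was above its flanks. H3R2me2s stood at 2.08 times background (1.94 to 2.22, 172 bins), while the combined mark had 1.38 (1.26 to 1.52) and H3K4me3 had 1.38 (1.28 to 1.49). The flanks had 1.65, 1.64 and 1.71. The H3R2me2s level was 1.50 times that of H3K4me3 (1.36 to 1.66) and 1.50 times that of the combined mark (1.34 to 1.69). At Ebf1 these quotients were 1.17 (1.10 to 1.24) and 1.14 (1.07 to 1.22), and at Foxo1 1.17 (1.04 to 1.32) and 1.16 (1.01 to 1.33). Tcf3 left only 22 bins, with 1.85 (1.50 to 2.26), 1.54 (1.18 to 1.97) and 2.27 (1.92 to 2.67), beside flanks at 1.75, 1.69 and 2.33. Its H3R2me2s quotients of 0.815 (0.624 to 1.06) and 1.20 (0.868 to 1.68) include no difference. More than 5 kb from enriched bins, 5 bins were left at Tcf3, with H3K4me3 at 1.48 and H3R2me2s at 1.95, too few bins to order these marks.

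Along the genes the signal outside enriched bins took different courses. When each window was divided into 3 equal parts in the direction of the gene, H3R2me2s in Pax5 went from 2.75 times background to 2.07 and 1.71. H3K4me3 went from 2.52 to 1.19 and 0.937, and the combined mark from 1.85 to 1.45 and 1.05. In Ebf1 H3R2me2s was level, at 2.86, 2.72 and 2.66. There H3K4me3 went from 2.09 and 1.92 to 3.25 (3.04 to 3.46) in the part that holds most of the group of regions. The combined mark had 2.37, 2.15 and 2.81. Over the whole Ebf1 window, H3K4me3 fell from 2.35 to 2.11 when only bins more than 5 kb from enriched bins were kept. In Foxo1 H3R2me2s was also level, at 2.97, 2.89 and 3.05.

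**Figure D4:**
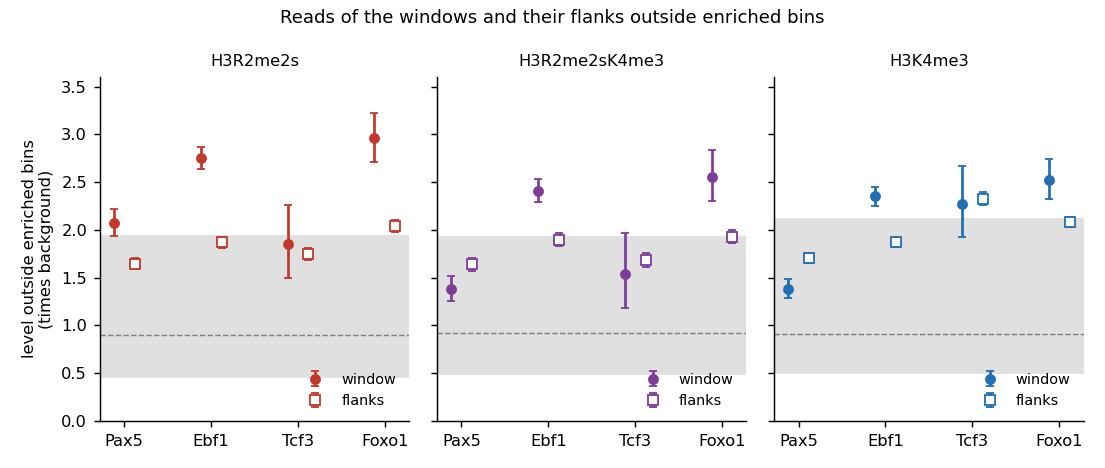
Level of each library outside enriched bins, as multiples of background, in the 4 windows (filled circles) and in 500 kb on each side (open squares), with exact 95% Poisson intervals. The dashed line is the median of 100 kb stretches of the genome and the band their 5th to 95th percentile; Ebf1 and Foxo1 lie above the band in all 3 libraries, Pax5 in H3R2me2s only, and Tcf3 in H3K4me3 only. At more than 5 kb from enriched bins, H3K4me3 at Ebf1 (2.11) and Tcf3 (1.48) and H3R2me2s at Pax5 (1.94) were no longer above it.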

How the data were processed

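ChIP-seq reads of 3 libraries (H3R2me2s, H3R2me2sK4me3, H3K4me3; 1 each, so grouped by antibody) were used. The authors gave 1 line per mapped read of 39 bases, and reads per bin were counted here without scaling. Per the submitters' processing notes the build was mm9; the aligner is not given in the sources used here. Per the labels' protocols, libraries had 15 PCR cycles and fragments of 100 to 500 bp.

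An enriched bin had to reach 4 times the genome-wide mean and a Poisson upper tail under 1e-06. Ratios have exact Clopper-Pearson intervals, and quotients of ratios exact conditional intervals. Windows came from the stated rule; every region called in them is accounted for, and those with 30 reads or more are described. The members and lists were chosen with earlier results of these data known. Summits, the Ebf1 group, stretches with few reads and regions of H3R2me2s alone were defined after seeing the values. Bin calling was tested on simulated counts. Python 3.11.15, numpy 2.4.6 and scipy 1.17.1 were used. Alternatives were read shifts, limits, repeated reads, equal depth, scaling and margins.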

Additional observations from a re-analysis of the deposited data

How the results depend on the processing

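Of 204 values recomputed under 12 settings, 150 stayed within their counting interval, within 1.5 times for counts or within 100 bp for summit positions, and 54 moved more. No count of enriched bins moved beyond 1.5 times with the read shift, with 1 read per position and strand, at equal depth or at 2 times the mean. At equal depth, however, Ebf1 had 26 H3K4me3 bins in place of 35, beside 31 of H3R2me2s, so the order of these marks there depended on depth. With 1 read per position and strand, Ebf1 had 24 H3R2me2s bins in place of 31. At 8 times the mean, enriched bins fell to 9 for H3R2me2s in Pax5, 13 for H3R2me2s and 19 for H3K4me3 in Ebf1, 7 for H3K4me3 in Tcf3, and 3 for H3R2me2s and 7 for H3K4me3 in Foxo1. A limit from the gene window left 12 H3R2me2s bins in Ebf1 and 3 in Foxo1. Regions called for H3R2me2s alone numbered 9 in the report, 5 with 1 read per position and strand and 0 at 8 times the mean or with the window limit; these settings were added after seeing the data.

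Scaled to background in place of all reads, H3R2me2s per H3K4me3 was 0.237, 0.267, 0.254 and 0.240 at Pax5, Ebf1, Tcf3 and Foxo1. The combined mark per H3K4me3 was 0.729, 0.798, 0.791 and 0.672, and H3R2me2s per combined mark 0.325, 0.335, 0.321 and 0.357. Medians over H3K4me3 regions scaled in the same way were 0.257, 0.584 and 0.389 for these ratios. The scaling multiplies each kind of ratio by 1 constant, so all 12 values moved while the order of genes cannot change. Within 1 kb of the H3K4me3 summit, H3R2me2s per H3K4me3 was 0.457 at Pax5, 0.549 at Ebf1 and 0.287 at Foxo1. The combined mark per H3K4me3 was 1.23 at Pax5, 1.28 at Ebf1 and 1.17 at Tcf3, and H3R2me2s per combined mark 0.371 at Pax5 and 0.340 at Foxo1. So the order of genes by H3R2me2s per H3K4me3 depends on the stretch counted. More than 5 kb from enriched bins, Pax5 had 1.94 times background of H3R2me2s and 1.13 of H3K4me3, Ebf1 had 2.11 of H3K4me3, Foxo1 had 2.32 of H3K4me3, and Tcf3, with 5 bins, had 1.95 (H3R2me2s), 1.07 (combined mark) and 1.48 (H3K4me3).

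The highest 100 bp bins held 14 to 71 reads, and 20 of 24 recomputed distances between summits of the marks moved by more than 100 bp, so such distances are not reported. No paired analysis was possible because there was 1 library per mark, with no replicate numbers to share.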

Other observations

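Short stretches almost without reads lay between strong bins of each promoter region. A stretch was a run of 100 bp bins with no more than 3 reads each over the 3 libraries, between bins of 20 H3K4me3 reads or more. At Foxo1 the longest ran for 1000 bp (chromosome 3, 52072201 to 52073200) and held 3 H3K4me3 reads and none in the other libraries. The kilobase before it held 46, 107 and 235 reads and the kilobase after it 26, 86 and 160. At Tcf3 the longest ran for 500 bp (chromosome 10, 79896001 to 79896500) with 1 read in each library, beside 65, 196 and 301 reads in the kilobase on one side and 46, 124 and 236 on the other. At Ebf1 it was 300 bp (44428101 to 44428400) with 0, 2 and 1 reads, and at Pax5 200 bp (44716501 to 44716700) with none. These longest stretches lay upstream of the highest bin in the direction of the gene. That each library had few reads in these stretches follows from how they were defined, and the cause of the stretches was not tested.

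Over the 1 kb bins of each window, H3R2me2s and H3K4me3 had a Pearson r of 0.941 at Pax5, 0.897 at Ebf1, 0.964 at Tcf3 and 0.900 at Foxo1, and the combined mark and H3K4me3 with 0.968, 0.944, 0.970 and 0.981. Bins are not independent. Outside the promoter regions, the r of H3R2me2s with H3K4me3 was 0.396 over 181 bins at Pax5, 0.618 over 395 at Ebf1, 0.938 over 34 at Tcf3 and 0.408 over 90 at Foxo1, and that of the combined mark with H3K4me3 was 0.416, 0.884, 0.984 and 0.546. Of the H3K4me3 reads, those at a position and strand already seen were 9.39% in the Pax5 window, 7.61% at Ebf1, 12.3% at Tcf3 and 7.98% at Foxo1, beside 6.20% of the library.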
